A study of Homo sapiens with 19 samples.

Results

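The promoters of 8 chromatin regulator genes, 4 of them genes of the LSD1 complex, were examined in chromatin immunoprecipitation sequencing (ChIP-seq) of the retinoblastoma protein RB and of V5-tagged E2F1 in prostate cancer cells. A promoter was taken as 2 kb either side of 1 start site per gene in the human build hg19, and an interval counted when it met that window by at least 1 base. In all, 25 of the 203381 deposited intervals lay in these windows. C4-2 and VCaP are established prostate cancer cell lines, grown here in medium with 5% charcoal-stripped serum, which is low in steroid hormones.

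LSD1, encoded by KDM1A, removes methyl groups from lysines of histones and of other proteins. It works in a complex that also holds the scaffold CoREST (RCOR1) and the histone deacetylases HDAC1 and HDAC2. EZH2 is the histone methyltransferase of the Polycomb repressive complex PRC2. DNMT1 copies DNA methylation onto newly made strands, UHRF1 recruits it to hemimethylated DNA, and HELLS is a chromatin remodeller needed for normal DNA methylation. RB binds E2F proteins and holds back their target genes until cells commit to DNA replication, and EZH2, DNMT1, UHRF1 and HELLS are known as genes whose expression rises with proliferation.

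The groups were as follows. V5 was mapped in C4-2 cells carrying a tetracycline-controlled E2F1 (tetE2F1), either the K185R mutant, in which a lysine of E2F1 is replaced by arginine, or wild type (WT). Each of these lines was given doxycycline (0.25 ug/ml for 3 days) followed by GSK2879552 (50 uM for 24 hours), GSK2879552 alone, doxycycline alone, or neither. Groups given neither are called untreated here and carry Veh in their sample titles. GSK2879552 is an inhibitor of LSD1. RB was mapped in untreated VCaP cells (1 library, Veh in its title) and untreated C4-2 cells (2 libraries, Ctrl in their titles). Each of the 8 V5 groups had 2 libraries. The clonal origin of the tetE2F1 lines is not given in the sources used here. Neither is it stated whether tagged E2F1 was made without doxycycline, so a V5 interval is reported as an interval and not as bound E2F1. The V5 lists carry siNTC and siRB in their names where the labels say untreated and doxycycline, and all statements follow the labels. The authors deposited 1 list of intervals per group, so no value below has a replicate error and no test between groups was possible.

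The RB lists held 17026 intervals in VCaP at 2.98 reads per kilobase and 9146 in C4-2 at 8.21. Depth here is the genome-wide background of a list per kilobase. The V5 lists held 2805 to 64025 intervals at 0.716 to 1.79 reads per kilobase. Each interval carries the authors' fold enrichment (reads at the summit against the local background) and −log10 q, which describe that interval and rank it within its own list. The reads at the summit were solved from the deposited values and are given with exact 95% Poisson intervals, which cover counting error only. The local background at the 25 intervals was 1.07 to 6.34 times the genome-wide floor of their list, so none had a background of 10 times the floor or more.

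The promoter sequences show where E2F-type motifs lie relative to the start. The 5 sequences below are those of the members in which the E2F core (TTCCCGC or TTGGCGC or TTGCCGC or TTCGCGC, on either strand) was found near the first start. They come from RefSeq, build GRCh38.p14, read along transcription from 250 bases before the start to 30 bases after it, with the E2F cores in capitals. EZH2 and DNMT1 are on the minus strand and the others on the plus strand. The hg19 start sites of the windows were not converted to this build. The locations are chr10:94545538-94545817 for HELLS, chr7:148884262-148884541 for EZH2, chr19:10194924-10195203 for DNMT1, chr19:4909251-4909530 for UHRF1 and chr1:23019218-23019497 for KDM1A.
HELLS: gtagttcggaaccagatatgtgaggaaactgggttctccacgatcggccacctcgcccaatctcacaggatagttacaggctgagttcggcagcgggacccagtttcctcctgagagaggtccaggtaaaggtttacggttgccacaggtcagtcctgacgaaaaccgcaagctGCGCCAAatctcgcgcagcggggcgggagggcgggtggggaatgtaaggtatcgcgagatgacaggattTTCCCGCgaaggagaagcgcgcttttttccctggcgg
EZH2: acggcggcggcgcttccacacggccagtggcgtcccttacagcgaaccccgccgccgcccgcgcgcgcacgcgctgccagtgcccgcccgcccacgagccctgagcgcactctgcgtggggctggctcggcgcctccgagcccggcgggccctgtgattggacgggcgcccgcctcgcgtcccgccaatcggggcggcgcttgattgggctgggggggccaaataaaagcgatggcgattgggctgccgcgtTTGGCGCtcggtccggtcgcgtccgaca
DNMT1: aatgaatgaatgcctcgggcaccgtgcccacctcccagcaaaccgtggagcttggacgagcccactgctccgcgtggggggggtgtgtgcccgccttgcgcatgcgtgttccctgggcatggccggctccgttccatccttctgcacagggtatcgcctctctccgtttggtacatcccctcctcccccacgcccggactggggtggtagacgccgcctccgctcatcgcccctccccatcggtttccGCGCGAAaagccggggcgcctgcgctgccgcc
UHRF1: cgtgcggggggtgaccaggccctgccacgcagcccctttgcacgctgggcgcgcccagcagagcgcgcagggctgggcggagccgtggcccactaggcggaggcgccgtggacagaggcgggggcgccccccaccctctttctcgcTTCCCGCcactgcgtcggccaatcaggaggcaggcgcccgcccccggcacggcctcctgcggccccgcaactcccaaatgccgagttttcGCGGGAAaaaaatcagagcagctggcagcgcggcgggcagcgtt
KDM1A: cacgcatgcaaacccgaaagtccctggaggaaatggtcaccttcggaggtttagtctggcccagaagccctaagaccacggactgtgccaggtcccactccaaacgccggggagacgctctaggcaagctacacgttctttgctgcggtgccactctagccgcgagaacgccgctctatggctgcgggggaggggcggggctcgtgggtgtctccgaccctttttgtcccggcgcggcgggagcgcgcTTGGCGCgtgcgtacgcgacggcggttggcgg

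HELLS had 2 E2F cores, GCGCCAA starting 76 bases before the start and TTCCCGC starting 7 bases before it. UHRF1 also had 2 near its first start, TTCCCGC at 104 bases and GCGGGAA at 14 bases before it. EZH2 had TTGGCGC beginning 2 bases after the start base, KDM1A had TTGGCGC and DNMT1 had GCGCGAA, the last 2 each beginning 2 bases before the start. The table holds 11 promoters for the 8 genes, all 8 genes matching, with further starts 806 bases downstream for EZH2 and 643 and 866 bases downstream for UHRF1. An E2F core was found in 6 of these 11 promoters, against 13.0% of the 35116 promoters of 300 bases in the table. G and C made up 57.7% to 79.7% of the member promoters, against a median of 58.7% over the table, and the windows of the last 2 UHRF1 starts overlap. The member promoters held 22 to 46 CG pairs, against a median of 14 over the table. Each E2F core and the GC box hold a CG pair, and the part of this in the motif shares was not tested. RCOR1, HDAC1 and HDAC2 had no E2F core in this window. The GC box (GGGCGG, either strand, overlapping matches counted) was found in 9 of the 11 promoters against 45.0% of all, and the CCAAT box (CCAAT, either strand) in 6 of the 11 against 34.6%. The CHR motif of late cell-cycle genes (TTTGAA, either strand) was in none of the 11, against 15.2% of all promoters.

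RB lay at these promoters in both cell lines. An RB interval was found at 7 of the 8 promoters in VCaP and at all 8 in C4-2. Over the genome, 2.27% of 4 kb tiles held an RB interval in VCaP and 1.07% in C4-2. Of 8709 C4-2 RB sites of low background, 69.6% had a VCaP RB interval within 2 kb of the summit against 7 of the 8 promoters (87.5%) here. V5 was far less common. An interval was found at 1 of the 32 combinations of promoter and list for K185R and at 8 of 32 for WT. V5 intervals lay at 2.54% to 10.2% of the low-background C4-2 RB sites that had VCaP RB in the K185R lists and at 11.9% to 14.6% in the WT lists, and in 0.456% to 7.31% of genome tiles for K185R and 0.366% to 8.41% for WT. The K185R count is near these shares. The 8 WT places came from 3 of the 8 promoters, and 30.8% of those RB sites had an interval in at least 1 WT list.

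**Figure D1:**
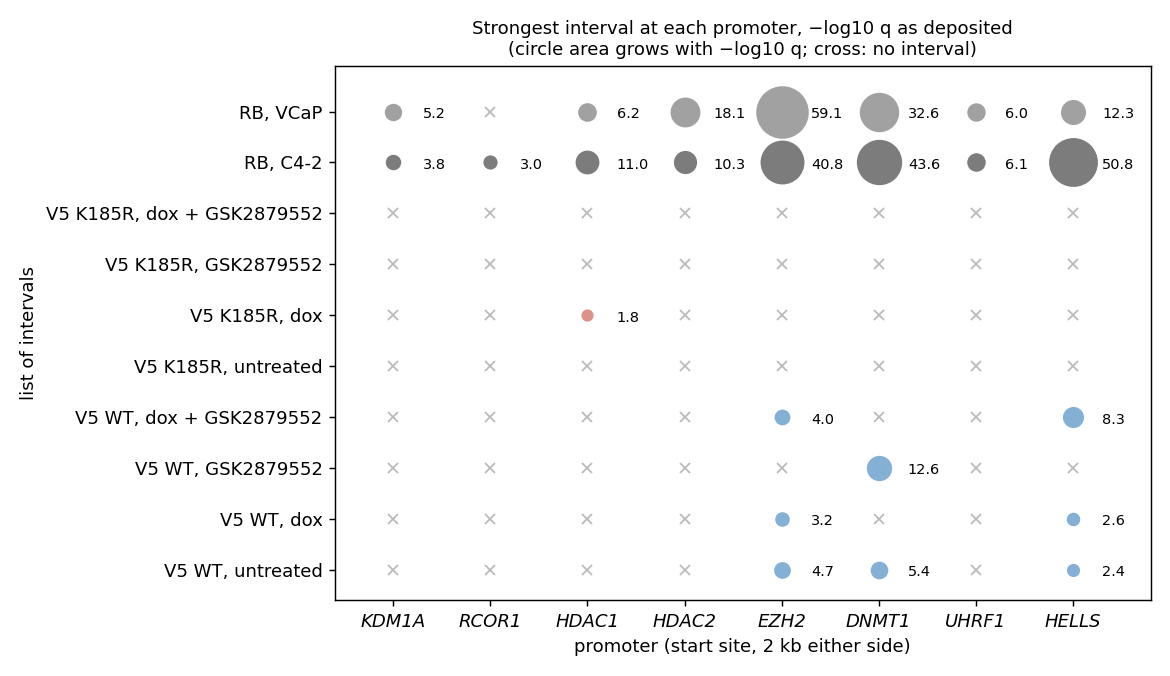
Columns are the 8 promoters and rows the 10 lists. Each circle is the strongest interval within 2 kb of the start site, with its deposited −log10 q printed beside it and as its area, and a cross means no interval. RB fills all but 1 of the 16 places, the WT V5 lists fill 8 places at EZH2, DNMT1 and HELLS, and the K185R V5 lists fill 1 at HDAC1.

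KDM1A, the gene of LSD1 itself, had a modest RB interval in both lines and no V5 interval in any list. The RB interval had a fold of 5.50 and a −log10 q of 5.21 in VCaP, resting on 12 reads (6.20 to 20.96). In C4-2 the interval lay at chr1:23345864-23346006 (hg19, as all interval positions here), the fold was 5.32 and the −log10 q 3.82, on 9 reads (4.12 to 17.1). The summits lay 30 bases before the start in VCaP and 31 bases before it in C4-2, 1 base apart. In rank the interval stood at 8423 of 17026 in VCaP and at 7233 of 9146 in C4-2, in the weaker part of the C4-2 list. The nearest V5 interval to the KDM1A start was 22129 bases away among the K185R lists (untreated) and 10236 bases away among the WT lists (doxycycline).

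RCOR1, the CoREST scaffold gene, was the one promoter without RB in VCaP, where the nearest interval was 66706 bases away. In C4-2 it had the weakest RB interval of the 8, with a fold of 4.40, a −log10 q of 3.00 and 11 reads (5.49 to 19.7), 349 bases before the start at chr14:103058584-103058683. It ranked 8277 of 9146. The C4-2 value thus rests on an interval close to the end of its list. The VCaP list had a lower depth, 2.98 reads per kilobase against 8.21 in C4-2. These values divide the floor by the smallest interval width, 213 bases in VCaP and 100 in C4-2. At 1 position the floor was 0.635 reads in VCaP and 0.821 in C4-2. RB intervals with a background 2 to 5 times the floor had at least 8 reads in VCaP and 9 in C4-2. The part of depth in the missing VCaP interval was not tested.

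Just outside the window, 3 V5 lists had an interval upstream of RCOR1 at nearly one place. The summits lay 3085 bases before the start in K185R cells with doxycycline, 3063 in WT cells with doxycycline and 3047 in untreated WT cells. Their −log10 q values were 2.81, 2.25 and 3.28 and their folds 4.87, 3.86 and 5.30, on 6, 4 and 6 reads. The edges nearest the start were 2951, 2935 and 2917 bases away. No RB interval lay there, since the only RB interval within 5 kb of this start is the C4-2 one described above. The interval just inside the limit was the K185R interval at HDAC1, described next.

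HDAC1 had RB over its start in both lines. The fold was 5.77 and the −log10 q 6.20 in VCaP, on 14 reads (7.65 to 23.5), with the summit 60 bases before the start. In C4-2 the fold was 7.64 and the −log10 q 10.999, on 20 reads (12.2 to 30.9), with the summit 12 bases after the start, at chr1:32757592-32757779. The interval ranked 6402 of 17026 in VCaP and 1796 of 9146 in C4-2.

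The only K185R interval at any of the 8 promoters also lay at HDAC1, in cells with doxycycline. Its fold was 3.95 and its −log10 q 1.85, on 5 reads (1.62 to 11.7), and it ranked 21242 of 22328 in its list. The summit was 1690 bases after the start and 1678 bases from the C4-2 RB summit, and the interval met neither RB interval. With K185R and doxycycline 1 of the 8 promoters (12.5%) thus had an interval, where 2.97% of genome tiles and 5.28% of 6065 RB sites had one. These RB sites are the C4-2 RB intervals of low background with a VCaP RB interval within 2 kb. With 8 promoters a single interval is the smallest step above 0, so this share is not a result about them.

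HDAC2, the partner deacetylase gene, had RB upstream of its start. The VCaP interval had a fold of 9.67 and a −log10 q of 18.1, on 27 reads (17.8 to 39.3), with the summit 343 bases before the start. The C4-2 interval had a fold of 8.04 and a −log10 q of 10.3, on 17 reads (9.90 to 27.2), with the summit 305 bases before the start, at chr6:114292611-114292746. They ranked 865 of 17026 in VCaP and 1981 of 9146 in C4-2. HDAC2 was the strongest RB promoter of the LSD1 complex genes in VCaP, and HDAC1 in C4-2 by −log10 q, while HDAC2 had the higher fold in C4-2 as well. No V5 list had an interval in the HDAC2 window. Outside it, the untreated K185R list had one with its summit 3992 bases after the start (fold 4.55, −log10 q 2.78, 5 reads).

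EZH2 had some of the strongest RB binding in both lists. The VCaP interval was 848 bases wide, with a fold of 14.7 and a −log10 q of 59.1 on 73 reads (57.2 to 91.8). The C4-2 interval, chr7:148581490-148582094, was 605 bases wide, with a fold of 12.9 and a −log10 q of 40.8 on 54 reads (40.6 to 70.5). It ranked 77 of 17026 in VCaP and 152 of 9146 in C4-2. The median interval was 301 bases wide in VCaP and 160 in C4-2.

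V5 was found at EZH2 in 3 of the 4 WT lists and in no K185R list. With doxycycline and GSK2879552 the WT fold was 5.79 and the −log10 q 4.04, on 9 reads (4.12 to 17.1). With doxycycline alone the fold was 5.03 and the −log10 q 3.24, on 7 reads (2.81 to 14.4), and in untreated WT cells 6.27 and 4.71, on 8 reads (3.45 to 15.8). The WT list with GSK2879552 alone had none, its nearest interval being 185348 bases away. The nearest K185R interval was 5117 bases from the start, in cells with GSK2879552. The RB summits lay 258 bases before the start in VCaP and 287 in C4-2, and the V5 summits 252 bases before it with both agents and 329 in untreated cells. With doxycycline alone the V5 summit was farther upstream, at 681 bases, although that interval overlapped the C4-2 RB interval over 377 bases. These V5 summits were 35, 42 and 394 bases from the C4-2 RB summit with both agents, without treatment and with doxycycline alone. The printed EZH2 sequence starts 250 bases before the RefSeq start, and where these summits lie relative to it was not determined.

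**Figure D2:**
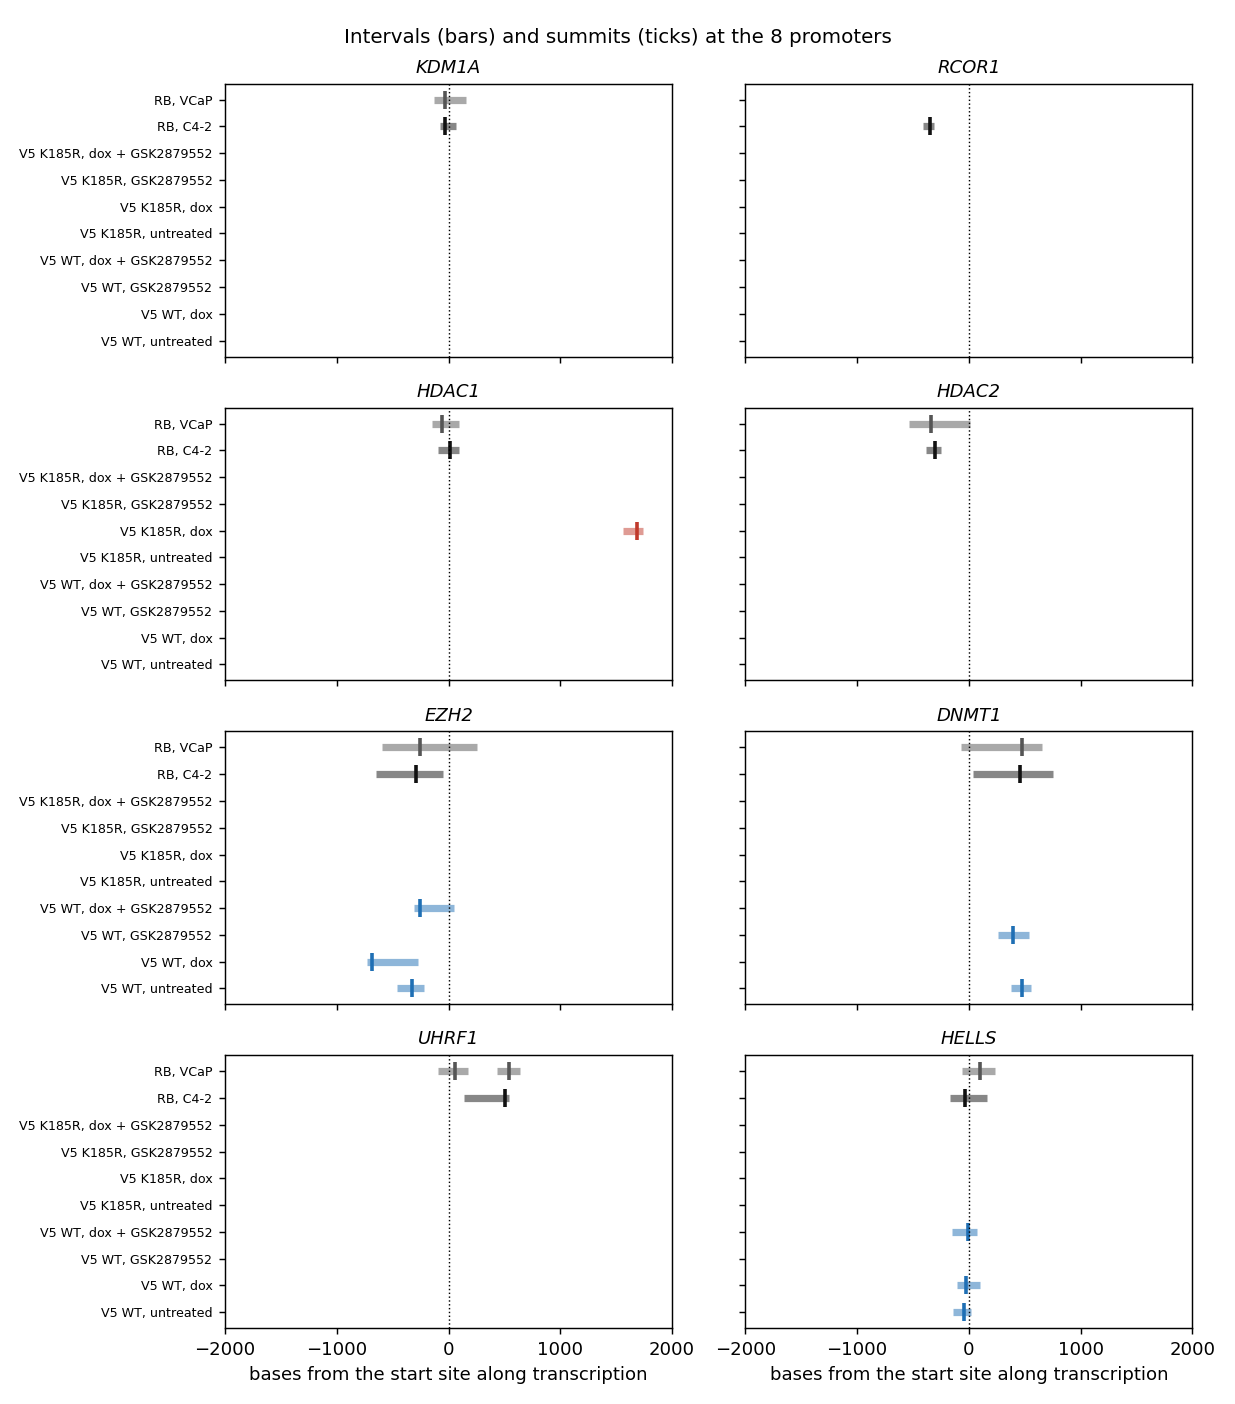
Each panel shows 1 promoter, with bases from the hg19 start site along the direction of transcription on the horizontal axis and the 10 lists down the page. Bars are intervals and ticks their summits. WT V5 intervals overlap the RB intervals at EZH2, DNMT1 and HELLS, and the K185R interval at HDAC1 lies 1690 bases after the start, apart from RB.

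DNMT1 had broad RB intervals downstream of its start. The VCaP interval was 730 bases wide, with a fold of 13.4 and a −log10 q of 32.6 on 40 reads (28.6 to 54.5). The C4-2 interval, chr19:10305002-10305721, was 720 bases wide, with a fold of 14.5 and a −log10 q of 43.6 on 53 reads (39.7 to 69.3). It ranked 272 of 17026 in VCaP and 133 of 9146 in C4-2. The summits lay 477 bases after the hg19 start in VCaP and 453 in C4-2. Where they lie relative to the printed DNMT1 sequence was not determined, since the hg19 and RefSeq starts were not matched.

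V5 was found at DNMT1 in 2 WT lists, the ones without doxycycline. With GSK2879552 the fold was 10.2 and the −log10 q 12.6, on 15 reads (8.40 to 24.7), the highest V5 values at any of the 8 promoters. In untreated WT cells the fold was 6.67 and the −log10 q 5.42, on 9 reads (4.12 to 17.1). The interval ranked 235 of 2805 with GSK2879552 and 1293 of 15099 without it, which is 8.38% and 8.56% of the way down those lists. The summits lay 397 bases after the start with GSK2879552 and 477 in untreated cells, where it was the same base as the VCaP RB summit. With doxycycline the nearest V5 interval of the WT lists was 885068 bases away with GSK2879552 and 45715 without it. The nearest K185R interval was 16080 bases away, in untreated cells.

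UHRF1 had RB of middling strength and no V5. VCaP had 2 RB intervals here. One had its summit 54 bases after the start, with a fold of 5.87 and a −log10 q of 6.03 on 13 reads (6.92 to 22.2), and the other 544 bases after it, with a fold of 4.16 and a −log10 q of 2.69 on 9 reads (4.12 to 17.1). C4-2 had 1 interval of 403 bases, chr19:4909652-4910054, that met both, with its summit 505 bases after the start, a fold of 5.73 and a −log10 q of 6.08 on 15 reads (8.40 to 24.7). The stronger VCaP interval ranked 6675 of 17026 and the C4-2 interval 4440 of 9146. The nearest V5 interval was 22620 bases away among the K185R lists and 23819 among the WT lists. The 2 E2F cores near its first start match HELLS in number, and nothing about E2F1 is read from them.

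HELLS had the strongest RB interval of the 8 promoters in C4-2 and a weaker one in VCaP. In VCaP the fold was 8.54 and the −log10 q 12.3 on 19 reads (11.4 to 29.7), at rank 1910 of 17026. In C4-2 the fold was 17.4 and the −log10 q 50.8 on 55 reads (41.4 to 71.6), at rank 91 of 9146, and it lay at chr10:96305406-96305739. The lists differ in depth and length, so the ranks are given side by side and not as a difference. The summit lay 102 bases after the start in VCaP and 33 bases before it in C4-2.

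V5 was found at HELLS in the same 3 WT lists as at EZH2. With doxycycline and GSK2879552 the fold was 8.17 and the −log10 q 8.34, on 12 reads (6.20 to 20.96). With doxycycline alone the fold was 4.40 and the −log10 q 2.56, and in untreated cells 4.62 and 2.36, each on 6 reads (2.20 to 13.1). The last 2 intervals stood in the lower part of their lists, at ranks 41904 of 64025 and 9070 of 15099, against 535 of 3874 with both agents. The V5 summits lay 8, 23 and 45 bases before the start with both agents, with doxycycline and without treatment, 25, 10 and 12 bases from the C4-2 RB summit. The hg19 and GRCh38 starts were not matched. Where these summits lie relative to the 2 E2F cores printed above was therefore not determined. The nearest interval of the WT list with GSK2879552 alone was 732949 bases away, and the nearest K185R interval was 13726 bases away, in untreated cells.

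**Figure D3:**
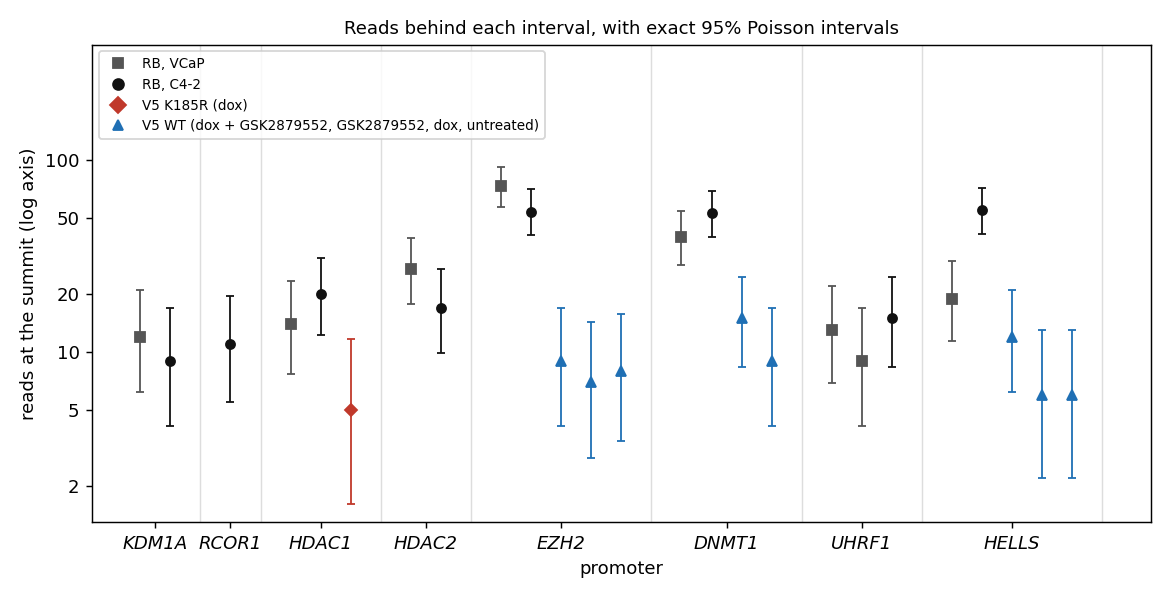
Reads at the summit (log axis) of the 25 intervals, by promoter, with exact 95% Poisson intervals as bars. Within a promoter the order is RB in VCaP, RB in C4-2, V5 K185R and V5 WT. WT V5 intervals rest on 6 to 15 reads and RB intervals on 9 to 73.

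The promoters with V5 in WT lists were those with the strongest C4-2 RB. EZH2, DNMT1 and HELLS had a C4-2 RB −log10 q of 40.8 to 50.8, and the other 5 promoters 3.00 to 10.999, so these ranges do not overlap. In VCaP the ranges were 12.3 to 59.1 at the same 3 promoters and 5.21 to 18.1 at the other 4 that had an interval, and they overlap because HDAC2 ranked above HELLS. This grouping was made after the values were seen and is a description. Strong RB sites carry V5 more often in general. Of the 200 strongest low-background C4-2 RB intervals, 133 also had VCaP RB within 2 kb. K185R V5 intervals lay at 34.6% of these with both agents, 39.8% with GSK2879552, 38.3% with doxycycline and 42.1% untreated. WT V5 intervals lay at 54.1%, 51.9%, 42.9% and 49.6% in the same order. Of these 133 sites, 44 had an interval in all 8 V5 lists. The pattern seen at EZH2, DNMT1 and HELLS, an interval in at least 2 WT lists and in no K185R list, occurred at 17 of the 133 (12.8%) and at 381 of the 6065 RB sites of both lines (6.28%). It was defined from these 3 promoters, which meet it by construction, so its shares are no test of them. The opposite pattern, at least 2 K185R lists and no WT list, occurred at 0 of the 133 and at 19 of the 6065 (0.313%).

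K185R and WT were compared under each treatment. With doxycycline and GSK2879552, 0 of the 8 promoters had an interval in K185R cells and 2 in WT cells (EZH2 and HELLS). The share of RB sites of both lines was 2.54% in K185R and 14.6% in WT, and that of genome tiles 0.456% in K185R and 0.506% in WT. With GSK2879552 alone the counts were 0 in K185R and 1 in WT (DNMT1), beside RB site shares of 5.84% in K185R and 12.3% in WT and tile shares of 1.31% in K185R and 0.366% in WT. With doxycycline alone they were 1 in K185R (HDAC1) and 2 in WT (EZH2 and HELLS), beside 5.28% of RB sites in K185R and 13.7% in WT, and 2.97% of tiles in K185R and 8.41% in WT. In untreated cells they were 0 in K185R and 3 in WT (EZH2, DNMT1 and HELLS), beside 10.2% of RB sites in K185R and 11.9% in WT, and 7.31% of tiles in K185R and 2.0% in WT. The WT count was higher under all 4 treatments, and no promoter had V5 in both K185R and WT lists. K185R had 1 interval in all, so this lack of overlap is not a result about the promoters. Of the 6065 RB sites, 15.2% had an interval in at least 1 K185R list and 30.8% in at least 1 WT list. With windows of 5 kb RCOR1 had V5 in both. In WT cells the share of promoters with GSK2879552 alone, 12.5%, was about that of RB sites. In untreated WT cells it was 37.5%, 3 of 8, where the RB site share was 11.9% and the share of the 133 strongest sites 49.6%. This count fell to 1 at −log10 q of at least 5 and to 0 among the 1000 strongest intervals. Over all WT lists, 3 of the 8 promoters (37.5%) had V5, near the 30.8% of RB sites.

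**Figure D4:**
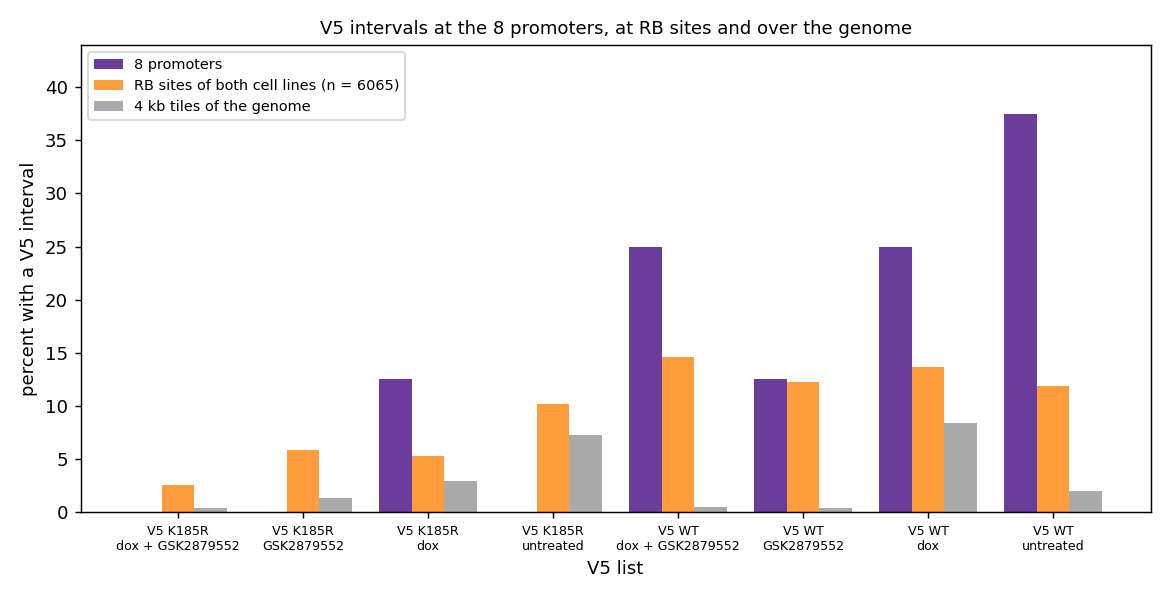
Percent of the 8 promoters, of 6065 RB sites common to both cell lines and of 4 kb genome tiles that hold a V5 interval, by V5 list. The promoter bars are 0, 0, 12.5 and 0% in the K185R lists and 25, 12.5, 25 and 37.5% in the WT lists. Each step of a promoter bar is 1 of 8 promoters.

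The absences were set beside the depth of the lists. The floor at 1 position was 0.159 reads in K185R and 0.155 in WT with both agents, and 0.180 and 0.139 with GSK2879552. It was 0.188 in K185R and 0.243 in WT with doxycycline, and 0.272 and 0.195 in untreated cells. Multiplied by the ratio of the K185R floor to the WT floor, which is the genome-wide background in reads at 1 position and not per kilobase, the WT summit reads correspond to 9.27 reads at EZH2 and 12.4 at HELLS with both agents and to 19.5 at DNMT1 with GSK2879552. They correspond to 5.41 reads at EZH2 and 4.64 at HELLS with doxycycline, and to 11.2 at EZH2, 12.6 at DNMT1 and 8.38 at HELLS in untreated cells. K185R intervals with a background 2 to 5 times the floor rested on as few as 4 reads in each of the 4 lists, and the reads needed grow with the local background within that range. The counting intervals of the scaled values lay wholly above 4 reads in 5 of the 8 cases, with a lower end of 10.9 at DNMT1 with GSK2879552. They reached below 4 reads at EZH2 with doxycycline (2.18) and at HELLS with doxycycline (1.70) and untreated (3.08). These rest on 7, 6 and 6 WT reads, and the part of depth in the missing K185R intervals was not tested. In the other cases 4 reads is only the lowest count of that range. A lower end above it does not show that an interval would have been called. At EZH2 with both agents that end was 4.24 and the WT background 4.69 times its floor, and at EZH2 in untreated cells the end was 4.82. An absent interval is thus a limit on reads and does not show that the protein was absent.

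The counts with and without GSK2879552 differed by 0 to 2 promoters. On top of doxycycline, K185R had 0 promoters with GSK2879552 and 1 without it, and WT had 2 with it and 2 without it, EZH2 and HELLS in both lists. The RB site shares of these lists were 2.54% with GSK2879552 and 5.28% without it in K185R, and 14.6% with it and 13.7% without it in WT. Without doxycycline, K185R had 0 with GSK2879552 and 0 without it, and WT had 1 with it and 3 without it. There the RB site shares were 5.84% with GSK2879552 and 10.2% without it in K185R, and 12.3% with it and 11.9% without it in WT, so the lower WT count has no counterpart in the WT share of RB sites. The genome tile shares were lower with GSK2879552 in both, 1.31% against 7.31% in K185R and 0.366% against 2.0% in WT. DNMT1 was the promoter present in both of these WT lists, and EZH2 and HELLS were in the untreated list alone. The WT list with GSK2879552 was the shallowest of the 8, at 0.716 reads per kilobase against 1.21 in untreated WT cells, and it held 2805 intervals against 15099. The part of depth in the missing EZH2 and HELLS intervals was not tested.

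DNMT1 had no V5 interval in the WT lists with doxycycline. With GSK2879552, K185R had 0 promoters with doxycycline and 0 without it, and WT had 2 with it (EZH2 and HELLS) and 1 without it (DNMT1). The RB site shares were 2.54% with doxycycline and 5.84% without it in K185R, and 14.6% with it and 12.3% without it in WT. Without GSK2879552, K185R had 1 with doxycycline and 0 without it, and WT had 2 with it and 3 without it, beside RB site shares of 5.28% with doxycycline and 10.2% without it in K185R, and 13.7% with it and 11.9% without it in WT. Without GSK2879552 the count differences are single promoters and run opposite to the RB site shares. With GSK2879552 the WT count and the WT share were both higher with doxycycline, and the promoters themselves differed. The WT doxycycline list was the longest, with 64025 intervals at 1.40 reads per kilobase, and the untreated WT list held 15099 at 1.21. The part of depth or list length in the missing DNMT1 interval was not tested. None of these differences has a replicate check.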

How the data were processed

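ChIP-seq of RB and V5 gave 19 libraries in 10 groups, and the authors deposited 1 list of intervals per group. Per the labels' protocols, a SMARTer ThruPLEX kit served for library preparation. FastQC 0.11.9, BWA 0.7.9a, SAMtools 1.2, MACS2 2.1.0 and hg19 are named by the submitters' processing notes. Settings, treatment of duplicates and any control input are not given there. Interval names of the 8 V5 files mark merged libraries, per the file headers and names, whereas C4-2 RB intervals are named after 1 library, and how its 2 libraries were joined is not stated.

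The deposited values are the fold enrichment (a linear ratio), −log10 p and −log10 q of each interval, and the summit position. Summit reads and local background were solved from the fold, which adds 1 to both terms, and from the Poisson p. Recomputed −log10 p differed from the deposited one by at most 0.000163. The method was tested on simulated data. The floor is the lowest local background found in 5 or more intervals, and depth is the floor divided by the smallest interval width, taken as the fragment length, in kilobases. Where several intervals lay in a window, that of highest −log10 q was taken. The rule for naming genes was to name all 8 members.

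The members and lists were chosen with earlier results of these data known, and no p-value was computed for them. The RB site classes, the 200 strongest among them, and the patterns over WT and K185R lists, were added after seeing the values. The share of genome tiles (4 kb each, up to the last interval of each chromosome) and of RB sites serves as background, since no hg19 annotation was used and related chromatin genes were therefore not analysed here. The direction of transcription and the promoter sequences come from RefSeq, GRCh38.p14. Python 3.11.15, pandas 2.3.3 and SciPy 1.17.1 were used. Alternatives were windows of 1 kb and 5 kb, −log10 q of at least 5, summits inside the window, the 1000 strongest intervals of a list and, added after seeing the data, lists without intervals of high background.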

Additional observations from a re-analysis of the deposited data

Results flagged for a closer look

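Without GSK2879552, the counts with and without doxycycline differed in opposite directions in K185R and WT cells, by 1 interval each way. The number of the 8 promoters with a V5 interval differed by 1 in K185R cells (1 with doxycycline, 0 without). In WT cells it differed by -1 (2 with, 3 without). These count differences are 2 apart, and each is a single interval. The K185R interval is the one at HDAC1 and the WT interval missing with doxycycline is the one at DNMT1. The shares of RB sites with a V5 interval ran the other way, 5.28% with doxycycline and 10.2% without it in K185R, and 13.7% with it and 11.9% without it in WT. Genome tiles did so too, with 2.97% with doxycycline and 7.31% without it in K185R, and 8.41% with it and 2.0% without it in WT. The HDAC1 interval drops out at 1 kb, at −log10 q of at least 5 and among the 1000 strongest intervals, where the K185R difference is 0.

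Within WT cells, the doxycycline difference was 1 promoter in the presence of GSK2879552 (2 with doxycycline, 1 without) and -1 in its absence, which again differ by 2. The WT share of RB sites was higher with doxycycline in both settings, 14.6% with it and 12.3% without it in the presence of GSK2879552, and 13.7% with it and 11.9% without it in its absence. At −log10 q of at least 5 the first of these differences is 0, and among the 1000 strongest intervals both are 0. Neither difference was tested, since each count comes from 1 list.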

How the results depend on the processing

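Counts of promoters depended on how strong an interval had to be. At −log10 q of at least 5, K185R had 0 promoters in each list, and WT had 1 with both agents (HELLS), 1 with GSK2879552 (DNMT1), 0 with doxycycline and 1 untreated (DNMT1). K185R minus WT was then -1, -1, 0 and -1 in the order of both agents, GSK2879552, doxycycline and untreated. The GSK2879552 difference was 1 in WT and 0 in K185R on top of doxycycline and 0 in WT without it. The doxycycline difference was 0 in WT with GSK2879552 and 0 in K185R without it. The RB comparison reversed, with 7 promoters in VCaP and 6 in C4-2 (a difference of 1 in place of -1), because KDM1A and RCOR1 in C4-2 lie under that limit. With the 1000 strongest intervals of each list, RB lay at 3 promoters in VCaP (HDAC2, EZH2 and DNMT1) and 3 in C4-2 (EZH2, DNMT1 and HELLS), a difference of 0. WT V5 lay at 1 promoter with both agents, 1 with GSK2879552, 0 with doxycycline and 0 untreated, and K185R V5 at 0 in each list. The GSK2879552 difference in WT without doxycycline reversed to 1 in place of -2, and on top of doxycycline it was 1 in WT and 0 in K185R. K185R minus WT was -1 with both agents, 0 with doxycycline and 0 untreated, and the doxycycline differences were 0. With 1 kb either side the HDAC1 interval dropped out, giving 0 promoters for K185R with doxycycline, -2 for K185R minus WT there, and 0 for the K185R differences by GSK2879552 and by doxycycline that use this list. With 5 kb either side K185R had 2 promoters with doxycycline (RCOR1 and HDAC1) and 1 untreated. RCOR1 was then in the WT lists with doxycycline and untreated as well. The GSK2879552 difference was -2 in K185R with doxycycline, -1 in K185R without it and -1 in WT with it. Counting by summits, or without intervals of high background (added after seeing the data), changed none of these counts or differences. WT had the higher count under each setting for both agents and for GSK2879552 alone. The WT and K185R counts were equal for doxycycline at −log10 q of at least 5 and among the 1000 strongest intervals, and for untreated cells among the 1000 strongest. The only window with 2 intervals, UHRF1 in VCaP, kept its fold of 5.87 with the interval nearest the start. No paired analysis was possible because each group has 1 list that joins its libraries, and for the same reason no library could be left out. Depth limits the V5 lists most, whose intervals here rest on 5 to 15 reads.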
